A study of Mus musculus with 9 samples.

Results

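The first interval of upper lip and primary palate development, E11.5 vs. E10.5, was examined across all genes of the deposited count table. The 3 E10.5 and 3 E11.5 libraries were compared, which are 6 of the 9 libraries of the series. Each library was made from lambdoidal junction tissue of a pool of 17–18 C57BL/6J embryos, with no treatment or engineered allele named in the labels, so a replicate is a pool of embryos and its value averages over epithelium, mesenchyme and any other tissue collected. Of 54532 genes in the table, 28671 had at least 1 count in these 6 libraries and 15708 passed the filter on low counts and were tested. The total count was 16959676–17756251 per library at E10.5 and 18280441–20836804 at E11.5. Gene families, cell types and processes were followed through 74 gene lists, each listed member being counted whether or not it could be tested. In a bulk sample, fewer cells of a type and less RNA per cell cannot be told apart, and this holds for every group below.

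At the lambdoidal junction the maxillary prominence meets the lateral and medial nasal prominences. Each prominence is a core of neural crest-derived mesenchyme under a sheet of surface ectoderm. The facing epithelia adhere and form a seam, and the seam is then removed so that the mesenchyme becomes continuous. Markers of the labelled tissue were present at both stages. The mesenchymal factor Twist1 was at 316, 270 and 127 CPM in the E10.5 libraries and at 430, 418 and 453 CPM in the E11.5 libraries, where CPM is the read count scaled to a common library size (TMM). The epithelial adhesion protein gene Epcam was at 83.8, 92.9 and 149 CPM at E10.5 and at 85.6, 93.9 and 87.7 CPM at E11.5. None of the 40 Hox genes, which mark neural crest and mesoderm behind the face, could be tested, the highest count of any of them in any library being 9.

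E10.5 replicate 3 stood apart from the other libraries, and the comparison was therefore also fitted without it. Over the genes tested, the SD of the log2 difference was 0.36 between E10.5 replicates 1 and 2, 0.69 and 0.68 between replicate 3 and each of them, and 0.34–0.38 among the E11.5 libraries. Fewer genes had a count in replicate 3 (21197) than in replicates 1 and 2 (23373 and 23378). Its deviation ran against GC content (rank correlation −0.56 over 15696 genes, which share their libraries), and it also differed by cell type. The 28 endothelial genes were lower in replicate 3 than in the mean of replicates 1 and 2 by a median of −1.65 on the log2 scale, while the 30 surface epithelium genes were higher by 0.64. The median was −1.18 for pericyte and smooth muscle genes, −0.97 for oral and maxillary mesenchyme factors and −0.97 for collagen chains, and 0.71 for desmosome proteins. With the trend on GC content removed, the endothelial median was −1.30 and the surface epithelium median 0.82, whereas the median of the mitochondrially encoded messages went from 0.72 to 0.02. The summed level of the 28 endothelial genes was 839, 809 and 297 CPM at E10.5 and 798, 808 and 818 CPM at E11.5, and that of the 30 surface epithelium genes 876, 969 and 1484 CPM at E10.5 and 894, 930 and 925 CPM at E11.5. The early embryonic and heterochronic genes, by contrast, deviated by 0.08 and all genes tested by 0.00. What part the makeup of this pool had in the results was not tested beyond the fits without it.

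**Figure D1:**
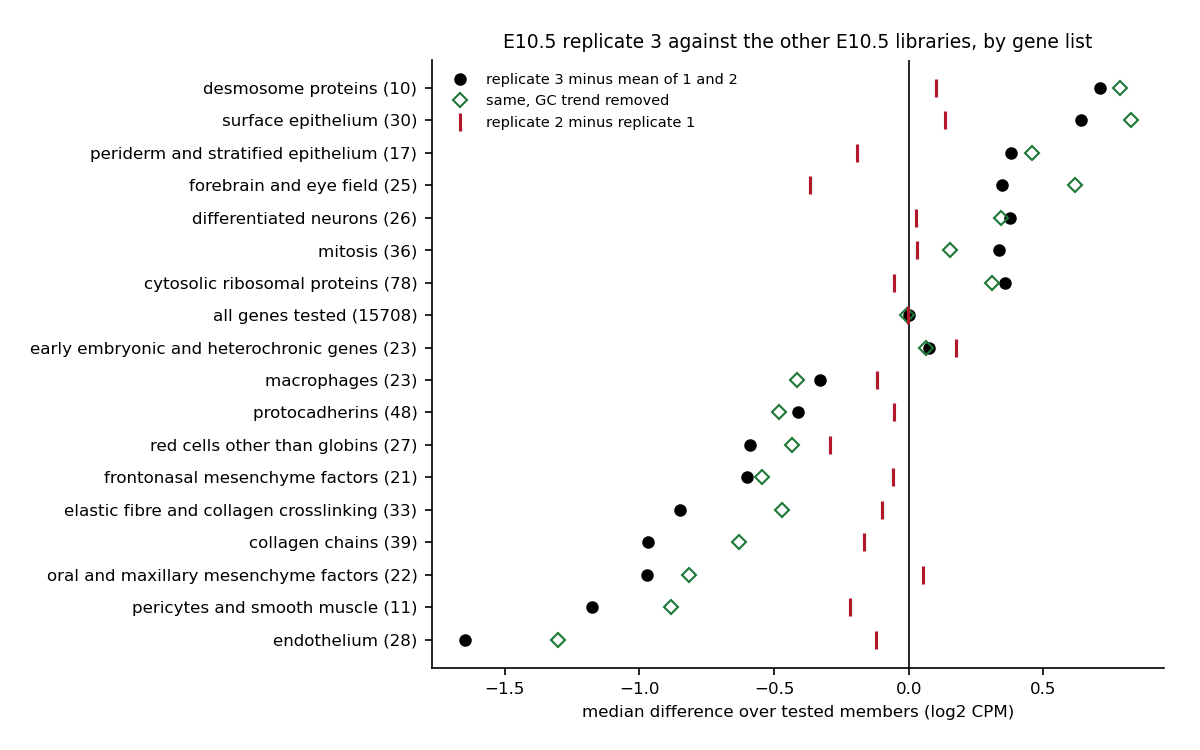
Median difference in log2 CPM (x axis) between E10.5 replicate 3 and the mean of E10.5 replicates 1 and 2 over the tested members of 18 groups of genes (y axis, number tested in parentheses). Filled circles give the difference, open diamonds the difference with the GC trend removed, and red ticks the difference between replicates 2 and 1. Endothelium lay at −1.65 and desmosome proteins at 0.71, and these groups kept their side with the GC trend removed.

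DEGs had to pass 0.05 for the adjusted p-value (edgeR's quasi-likelihood test, Benjamini-Hochberg adjustment) and 1 for the absolute log2 fold change. Of the 15708 genes tested, 954 (6.07%) were DEGs, with 544 (3.46%) upregulated and 410 (2.61%) downregulated at E11.5. Over all genes tested, the log2 fold changes had a median of −0.03. In all 954 DEGs the libraries of the stages did not overlap, which held for 36.6% of all genes tested. Most DEGs were genes of low level, 537 of them being under 10 CPM on average at both stages, and 829 were protein-coding. Of the 954 genes, 54 are named in the text of the study, and the description below turns mainly to the others. With 1 library left out in turn, the number of DEGs was 395–1592, the lowest without E11.5 replicate 1, and 217 upregulated and 143 downregulated genes were called in every such fit. Where a pair of log2 fold changes stands in parentheses below, the first is from all 6 libraries and the second from the fit that lacks E10.5 replicate 3.

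Without E10.5 replicate 3, which leaves 2 libraries at E10.5, 16263 genes were tested, of which 772 (4.75%) were upregulated and 820 (5.04%) downregulated. The biological coefficient of variation was 0.177 with all 6 libraries and 0.078 without this library. Of the DEGs, 486 upregulated and 365 downregulated genes were called again, and all 103 that were not still passed 0.05 for the adjusted p-value and had the same sign but lay under the fold-change threshold. With the GC trend removed and all 6 libraries kept, 538 upregulated and 400 downregulated genes were called again. The upregulated share of the DEGs went from 57.02% to 48.49% without the library. The median GC content was 49.71% over all genes tested, 48.89% in the upregulated and 53.32% in the downregulated DEGs, and 47.05% and 51.43% in the genes that were up- and downregulated only without E10.5 replicate 3.

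The DEGs lost without E10.5 replicate 3 that had the smallest p-values moved little. The ephrin receptor gene Epha3 went from a log2 fold change of 1.06 to 0.93, the transcription factor gene Zfhx3 from 1.05 to 0.97, Phldb2 from 1.04 to 0.95 and Glipr2 from 1.03 to 0.98. On the downregulated side Adgrg1, an adhesion receptor gene, went from −1.11 to −0.99, Ccdc88c from −1.06 to −0.97, the nuclear pore gene Nup210 from −1.06 to −0.96 and Fam19a5 from −1.01 to −0.98. Phldb2 and Fam19a5 were also lost without E11.5 replicate 1, and Glipr2 without replicate 2 of E10.5 or E11.5 replicate 3. Genes called only without E10.5 replicate 3 included some with large moves. Gm3362 was at 3.39, 1.77 and 42.7 CPM at E10.5 and at 25.6, 30.8 and 26.0 CPM at E11.5, and its log2 fold change was 0.79 with all libraries and 3.42 without replicate 3. Malat1, a nuclear noncoding RNA, was at 243, 191 and 85.4 CPM at E10.5 and at 101, 88.5 and 79.7 CPM at E11.5, and its log2 fold change went from −0.95 to −1.28. For Malat1, replicate 3 lay among the E11.5 libraries rather than with its own stage, and for Gm3362 it lay above all of the E11.5 libraries. The others were Eid1 (0.76 and 1.15), Nrep (0.98 and 1.10), the heparan sulfate proteoglycan gene Sdc2 (0.92 and 1.11), the activin receptor gene Acvr2b (−0.94 and −1.12), Hmgb1-ps2 (−0.84 and −1.11) and Adnp (−0.85 and −1.24), with all 6 libraries and without replicate 3, in that order. Adnp and Eid1 share much of their exon sequence with other genes, and Hmgb1-ps2 is a pseudogene copy, so their counts are uncertain.

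**Figure D2:**
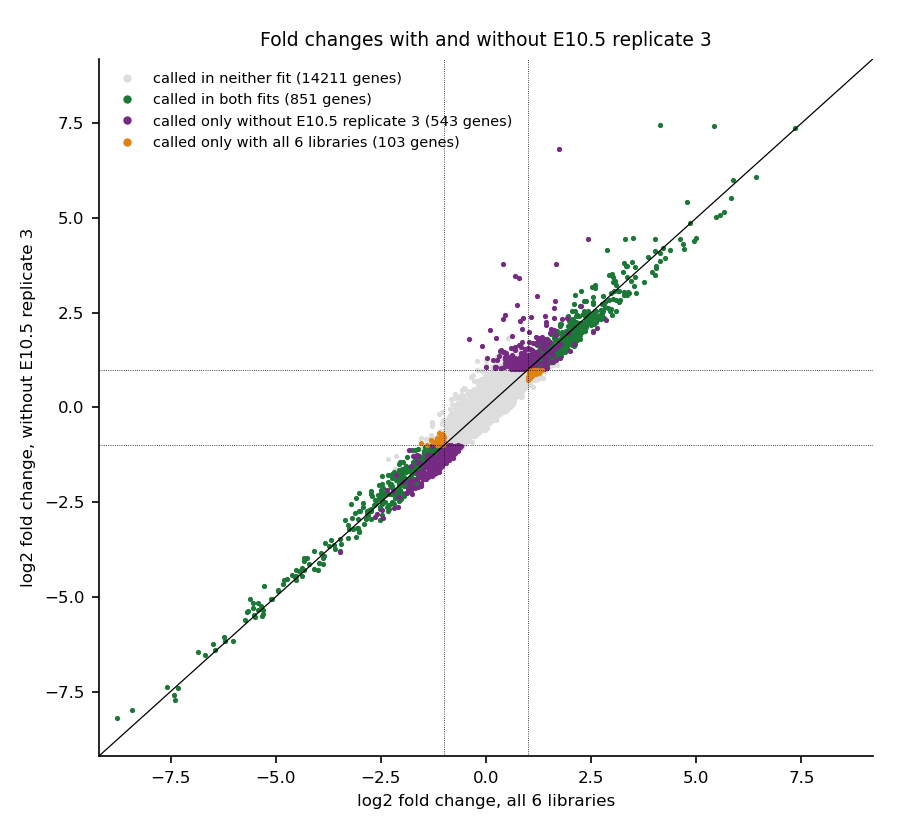
Log2 fold change of E11.5 vs. E10.5 for each gene with all 6 libraries (x axis) and without E10.5 replicate 3 (y axis), with dotted lines at the fold-change threshold and the diagonal drawn. Of the genes tested in both fits, 851 were called in both, 543 only without the library and 103 only with all 6. Those 103 lay under the fold-change threshold without the library.

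The lists differed widely in how many of their members changed. In 2 of them, forebrain and eye field regulators and early embryonic genes, many members were downregulated and none upregulated. In collagen chains, protocadherins, stratified epithelium genes and the joint list of secreted Wnt antagonists and R-spondins, many were upregulated and none downregulated. A gene that is high at a single stage passes the filter on low counts through that stage. The counts below are therefore to be read beside the shares over all genes tested, 3.46% upregulated and 2.61% downregulated. Many are given out of the tested members only. The numbers listed and tested were 19 and 13 for osteoblast, 22 and 15 for dense connective tissue and 25 and 17 for chondrocyte genes. They were 22 and 13 for FGF ligands, 45 and 31 for MMP, ADAMTS and TIMP and 34 and 24 for retinoid genes. Those for annexin and S100 genes were 27 and 16, and those for solute carriers 375 and 249. No list was tested as a set.

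**Figure D3:**
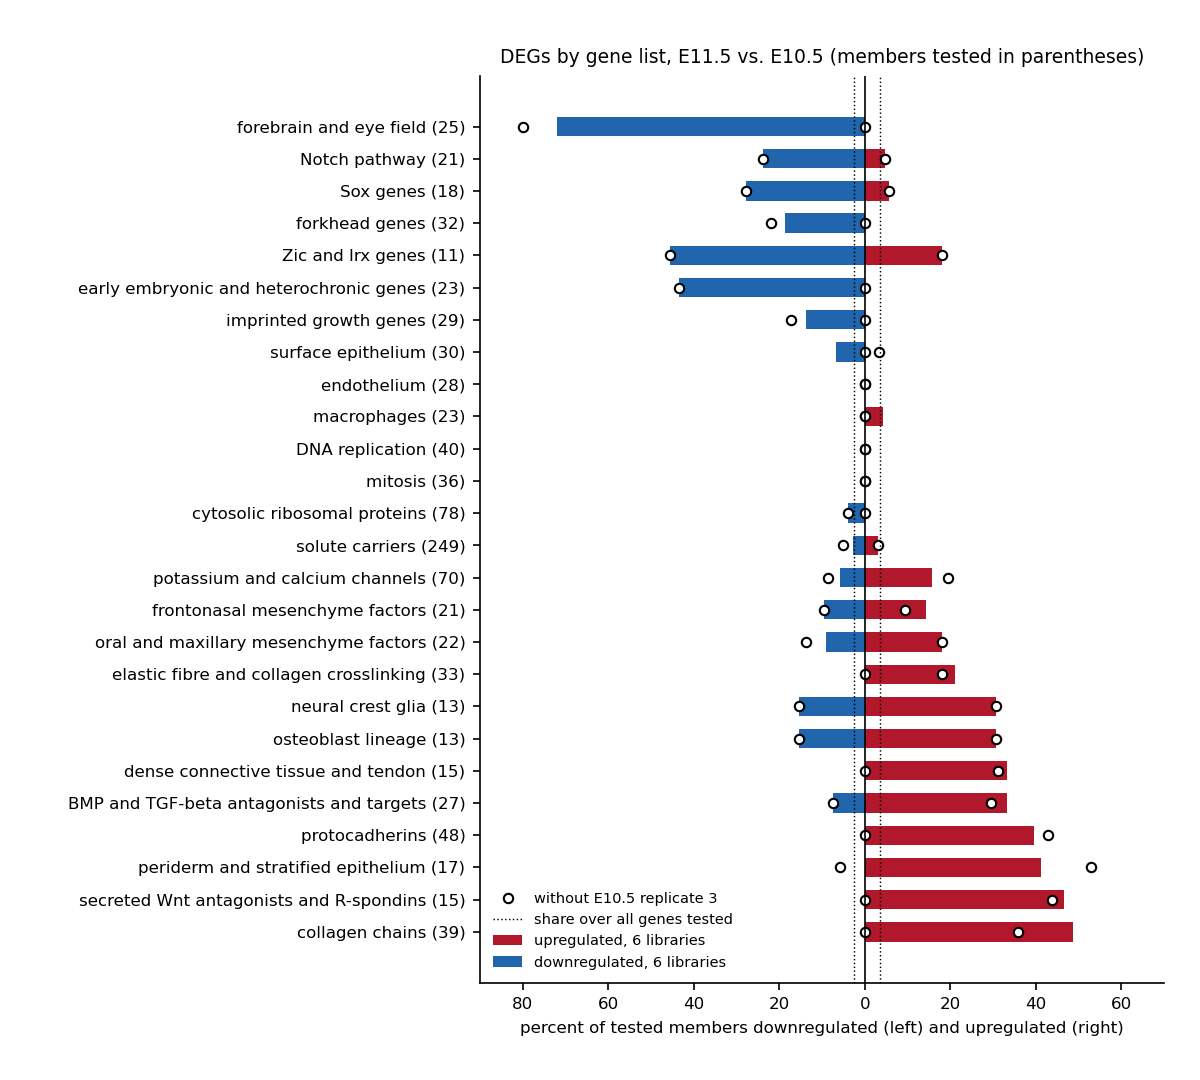
Percent of the tested members of 26 gene lists that were downregulated (bars to the left) and upregulated (bars to the right) in E11.5 vs. E10.5, with the number tested in parentheses. Open circles give the shares without E10.5 replicate 3 and dotted lines the shares over all genes tested (2.61% and 3.46%). Forebrain and eye field genes reached 72% downregulated and collagen chains 48.7% upregulated.

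Regulators of the forebrain and eye field had the highest share of downregulated members (72%) of the lists with a tested gene. Of 26 listed genes 25 were tested, 18 were downregulated and none was upregulated, with a median log2 fold change of −2.21. Without E10.5 replicate 3 the same 18 genes and 2 more were downregulated (median −2.20), and with each library left out in turn the number was 14–20. Sox1, a transcription factor gene of neural progenitors (chr8:12395295-12400126, plus strand, GRCm38), was at 50.0, 37.0 and 57.0 CPM at E10.5 and at 0.212, 1.14 and 0.520 CPM at E11.5. Its mean fell from 48.0 ± 10.2 to 0.623 ± 0.471 CPM (SD, n = 3 libraries; log2 fold change −6.22 ± 0.41 SE, adjusted p = 0.000723 by edgeR's quasi-likelihood test, and −6.07 without E10.5 replicate 3). Every E10.5 library, replicate 3 included, held far more Sox1 than any E11.5 library. Crb2, an apical polarity gene of neuroepithelium, was at 51.9, 42.4 and 52.1 CPM at E10.5 and at 6.31, 7.30 and 6.97 CPM at E11.5. Its log2 fold change of −2.83 ± 0.14 SE had among the smallest adjusted p-values of all genes (adjusted p = 0.000576 by edgeR) and was −2.78 without replicate 3. Sox3, which acts with Sox1 in neural progenitors, was at 61.1, 46.6 and 48.5 CPM against 4.93, 7.06 and 5.46 CPM (log2 fold change −3.16, and −3.20 without replicate 3).

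Regulators of the optic and ventral forebrain primordia were among the downregulated genes. Rax, which starts the eye field, was at 7.70, 1.43 and 3.06 CPM at E10.5 and was listed at 0, 0 and 0.052 CPM at E11.5. It shares 27.4% of its exon sequence with another gene. Nkx2-1, of the ventral forebrain and thyroid, went from 30.8, 43.1 and 57.2 CPM to 0, 2.32 and 0.364 CPM (log2 fold change −5.55, and −5.29 without E10.5 replicate 3). Pax2, of the optic stalk, went from 17.3, 10.04 and 12.2 CPM to 0.159, 0.0948 and 0.624 CPM (−5.48 and −5.54). The eye regulators Six6 (−3.34 and −2.96) and Vax1 (−3.04 and −3.18) fell by less. Each of these 5 genes was called with any of the 6 libraries left out. Otp, a hypothalamic regulator with no count at E11.5, was at least 7.08-fold lower there, taking 3 counts per library as the limit of detection. Otx2, a factor of forebrain and anterior head ectoderm, went from 26.3, 26.7 and 44.9 CPM to 12.3, 13.4 and 13.9 CPM (−1.31, and −1.01 without replicate 3). Otx2 was not called without E11.5 replicate 1 or 3. Six3 was at 50.9, 41.4 and 66.8 CPM against 29.98, 28.9 and 30.6 CPM, a log2 fold change of −0.83 (−0.63 without replicate 3) that did not reach the threshold. The summed level of the list was 710, 616 and 830 CPM at E10.5 and 215, 237 and 236 CPM at E11.5, and none of its 6 defining markers was at 0 in all 6 libraries. Whether the tissue collected at E10.5 held neuroepithelium was not tested.

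Zic genes, zinc finger regulators of neural and dorsal midline tissue, also fell. Zic1 was at 57.0, 37.1 and 53.4 CPM at E10.5 and at 1.33, 3.36 and 1.56 CPM at E11.5 (log2 fold change −4.54, and −4.47 without E10.5 replicate 3), and the stages did not come near each other. Zic2 (−3.61 and −3.63), Zic4 (−4.52 and −4.56) and Zic5 (−2.53 and −2.42) were also downregulated, and Zic1, Zic2, Zic4 and Zic5 were called with each library left out in turn. Of the 6 Irx genes, Irx6 was upregulated from 0.0584, 0.114 and 0.245 CPM to 4.40, 3.08 and 4.48 CPM (4.79 and 5.42). Irx5 was at 43.0, 28.6 and 18.9 CPM against 61.9, 63.4 and 58.8 CPM (1.02, and 0.78 without replicate 3), and was called in 1 of the 6 fits that leave out a library, the one lacking E10.5 replicate 1. In the Sox family 5 of 18 tested genes were downregulated and 1 was upregulated, with or without replicate 3. Beside Sox1 and Sox3 these were Sox2 (93.7, 98.7 and 130 CPM against 38.2, 47.7 and 45.2 CPM, −1.30 and −1.14), Sox21 (−1.45 and −1.40) and Sox13 (−1.06 and −1.14, called in 5 of the 6 fits that leave out a library). Sox10, of neural crest and glia, was the gene that rose.

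Genes of neurogenesis and Notch signaling changed in both directions. In the Notch pathway 5 of 21 tested genes were downregulated and 1, Hey2 (3.34 and 3.45), was upregulated (median log2 fold change −0.15), and the counts were the same without E10.5 replicate 3. The number downregulated was 3 without E11.5 replicate 3. Dll1, a ligand that neural precursors present to their neighbours, was at 14.5, 13.9 and 16.4 CPM at E10.5 and at 1.17, 3.03 and 2.86 CPM at E11.5 (log2 fold change −2.66, and −2.58 without replicate 3). Hes5, a transcriptional target of Notch, went from 4.90, 7.87 and 11.3 CPM to 0.212, 1.52 and 0.989 CPM (−3.12 and −2.78), and Nrarp, a feedback inhibitor, had −1.37 and −1.41. Hes5 was not called without E11.5 replicate 3. Dll1, Hes5 and Nrarp share 20.6%, 31.8% and 79.4% of their exon sequence with other genes, so their values are uncertain. Of 20 tested genes of olfactory neurogenesis 4 were downregulated and none was upregulated, with a median log2 fold change of 0.07, and 2 were downregulated without E11.5 replicate 1 or 3. They included the Notch ligand gene Dll3 (−2.07 and −2.27) and the neural transcription factor gene Onecut2 (−1.96 and −1.83). The numbers were 5 downregulated and 2 upregulated without E10.5 replicate 3, the latter being the neuronal differentiation genes Neurod1 (0.73 and 1.16) and Nhlh2 (0.92 and 1.04). Among its defining members, Ebf2 was at 16.6, 18.9 and 16.5 CPM against 18.9, 19 and 17.5 CPM (0.09 and 0.06), and Neurog1 had 0.39 (adjusted p = 0.23 by edgeR) and 0.31. Of 26 genes of differentiated neurons 1 was upregulated and 4 were downregulated, or 3 and 4 without replicate 3. The neuronal tubulin gene Tubb3 was at 88.4, 87.0 and 89.5 CPM against 82.8, 88.9 and 98.8 CPM (0.03 and 0.04), the stages overlapping, whereas Stmn2, of growing axons, was at 13.4, 14.7 and 23.6 CPM against 40.9, 30.6 and 39.5 CPM (1.10, and 1.39 without replicate 3). The downregulated genes were Celf3 (−1.18 and −1.29), the secretory granule gene Scg3 (−1.68 and −1.48), and the stathmin genes Stmn4 (−1.76 and −1.13) and Stmn3 (−1.19 and −0.90, not called without replicate 3). Stmn2 was not called without E10.5 replicate 1 or 2 or E11.5 replicate 1 or 3, and no gene of differentiated neurons was downregulated without E11.5 replicate 1 or 3.

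Early embryonic and heterochronic genes, which set the timing of development, were the other list with many downregulated members. Of 26 listed genes 23 were tested, 10 were downregulated and none was upregulated (median log2 fold change −0.78). The same 10 genes were downregulated without E10.5 replicate 3 (median −0.90), and 7–10 were with each library left out in turn. Lin28a and its paralog Lin28b encode RNA-binding proteins that block the maturation of let-7 microRNAs, and let-7 in turn represses many of the genes of this list, Lin28a and Lin28b included. The let-7 sequences are shown because their shared seed is what was searched for in these genes. Mature let-7 RNAs are not measured by these libraries. In the RefSeq-derived table for GRCm38.p6, 10 of the 11 let-7 family members have the same seed, bases 2 to 8, in capitals:
mmu-let-7a-5p: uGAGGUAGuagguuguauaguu
mmu-let-7g-5p: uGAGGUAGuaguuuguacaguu
mmu-miR-98-5p: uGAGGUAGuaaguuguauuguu
The sequence complementary to this seed with an A after it, CTACCTCA, was searched for on the sense strand of the longest annotated 3′ UTR of each gene. It was found in Lin28a, Lin28b, Trim71, Igdcc3, Nr6a1, Sall4 and Arid3a, which are 7 of the 10 downregulated genes, and in 4 of the 13 others of the list that were tested. Trim71 holds 4 such matches, Nr6a1 holds 3, Lin28a and Igdcc3 hold 2 each, and the others hold 1. For the genes described next, only the first match in each 3′ UTR is printed with its flanks, the match in capitals:
Lin28a: cacagcctgttgaaCTACCTCAtttttg
Lin28b: cccgggcgggaagtCTACCTCAtgcaag
Trim71: acattgcctaagtcCTACCTCAgcttaa
Igdcc3: gtgactctcagcacCTACCTCAgccgga
These lie at chr4:134005183-134005210 (minus strand), chr10:45381016-45381043 (minus), chr9:114512466-114512493 (minus) and chr9:65185708-65185735 (plus) in GRCm38, respectively, each in the 3′ UTR.

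Lin28a was at 57.6, 72.6 and 108 CPM at E10.5 and at 3.13, 6.06 and 3.17 CPM at E11.5, falling from 79.5 ± 26.0 to 4.12 ± 1.68 CPM (SD, n = 3 libraries; log2 fold change −4.26 ± 0.34 SE, adjusted p = 0.00104 by edgeR's quasi-likelihood test). Lin28b was at 122, 141 and 206 CPM against 26.9, 39.2 and 29.8 CPM (−2.29 ± 0.23 SE). Replicate 3 was the highest E10.5 library for both, and without it the log2 fold changes were −3.96 and −2.04. Trim71, a ubiquitin ligase gene that is a classical let-7 target, was at 95.5, 123 and 93.8 CPM against 22.0, 29.4 and 21.9 CPM (−2.09, and −2.16 without replicate 3). Igdcc3, encoding a cell surface immunoglobulin protein, was at 361, 538 and 302 CPM against 26.7, 46.0 and 27.7 CPM (−3.58, and −3.74 without replicate 3). In each of these genes the lowest E10.5 library was more than 3-fold above the highest E11.5 library. Nr6a1 (−1.44 and −1.23), Sall4 (−1.28 and −1.39), Arid3b (−1.21 and −1.13) and Arid3a (−1.01 and −1.07) fell by less, and Pou3f1 (−2.77 and −2.71) and Zscan10 (−2.25 and −2.10) were at low levels. Nr6a1 was called in 5, Arid3a in 4 and Zscan10 in 2 of the 6 fits that leave out a library, and the other 7 genes in all of them.

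Several genes with a let-7 match were not called. Hmga2, an architectural chromatin protein gene and let-7 target, was at 636, 656 and 787 CPM at E10.5 and at 723, 720 and 681 CPM at E11.5, the stages overlapping (log2 fold change 0.03, and 0.13 without E10.5 replicate 3). The RNA-binding protein genes Igf2bp1 (−0.53, adjusted p = 0.0164 by edgeR, and −0.55), Igf2bp3 (−0.45 and −0.42) and Igf2bp2 (−0.17 and −0.11) also hold the match and were not DEGs, and Igf2bp3 shares 18.7% of its exon sequence with another gene. These 4 are the members with a match that were not called, and they were singled out after their values were seen. Over all 13627 tested protein-coding genes with an annotated 3′ UTR, 513 (3.76%) held the match, and their median log2 fold change was −0.04 against −0.02 for those without. The match was found in 24 of 327 downregulated DEGs (7.34%) and in 16 of 497 upregulated DEGs (3.22%), with a median 3′ UTR length of 1219 and 1629 bases. The median length was 2119 bases for the list and 1234 bases for all these genes. The list was composed in part of known let-7 targets, so the share of its tested members with a match, 47.8%, is not evidence about the list. The list also holds 7 of the 24 downregulated DEGs with a match, so their share of 7.34% is not independent of it.

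**Figure D4:**
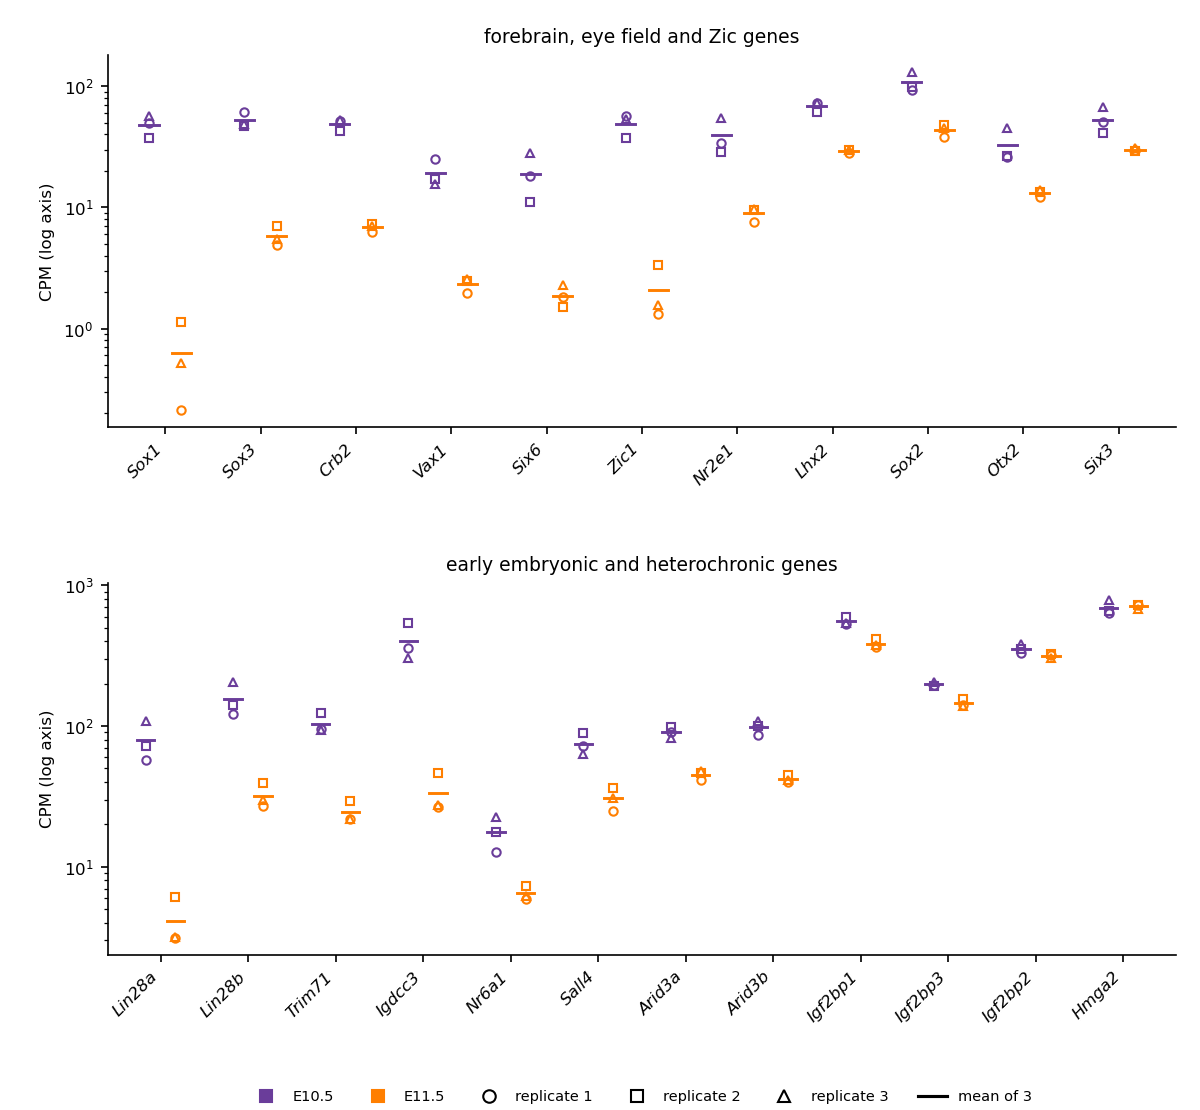
CPM on a log axis of 11 forebrain, eye field and Zic genes (upper panel) and 12 early embryonic and heterochronic genes (lower panel) in each E10.5 (purple) and E11.5 (orange) library, with a symbol for each replicate and a bar at the mean of 3. The stages are far apart for Sox1, Zic1, Lin28a and Igdcc3, and they overlap for Hmga2, which was at 636–787 CPM at E10.5 and 681–723 CPM at E11.5.

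Imprinted growth genes, of which 29 were tested, included 4 downregulated and no upregulated genes, and without E10.5 replicate 3 these 4 and 1 more, Kcnq1ot1 (−0.69 and −1.01), were downregulated. Dlk1, a membrane-bound inhibitor of differentiation expressed from the paternal allele, was at 432, 490 and 425 CPM at E10.5 and at 111, 149 and 133 CPM at E11.5 (log2 fold change −1.78, and −1.82 without E10.5 replicate 3). Meg3, the maternally expressed noncoding RNA of the same locus, was at 124, 120 and 71.0 CPM against 41.1, 31.9 and 29.4 CPM (−1.62 and −1.84), and Rtl1, also of this locus, had −1.09 and −1.10. Magel2 was at 20.2, 26.2 and 8.51 CPM against 4.40, 5.97 and 5.52 CPM (−1.79, and −2.13 without replicate 3). Magel2 was called in no fit that leaves out a library other than E10.5 replicate 3, Rtl1 only without E10.5 replicate 2 or 3, and with any 1 E11.5 library left out 2 genes of the list were called. Among forkhead genes 6 of 32 tested were downregulated, or 7 without E10.5 replicate 3, and none was upregulated. They included Foxe1, of oral and thyroid ectoderm and endoderm, at 27.3, 29.9 and 20.1 CPM against 5.20, 8.10 and 6.82 CPM (−1.94, and −2.09 without replicate 3), and the lens gene Foxe3, which had no count at E11.5 and was at least 7.43-fold lower there. Leaving out E11.5 replicates 1, 2 and 3 in turn gave 2, 3 and 2 forkhead genes. Pitx1, a regulator of the oral ectoderm and pituitary, fell as well (80.8, 97.2 and 63.5 CPM against 32.1, 46.6 and 37.7 CPM, −1.05 and −1.20). Pitx1 was not called without replicate 2 of E10.5 or E11.5 replicate 1 or 3, and Foxe3 was not called when any 1 of the E11.5 libraries was left out.

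Genes common to all surface epithelium gave few DEGs, while 7 of the 17 tested genes of stratified epithelium were upregulated. Of 30 tested genes of the first kind, none was upregulated and 2 were downregulated (median log2 fold change −0.19), and without E10.5 replicate 3, the library in which these genes were high, 1 was upregulated and none was downregulated (0.05). The adhesion genes Epcam and Cdh1 had log2 fold changes of −0.29 and −0.18 with all libraries and of 0.01 and 0.11 without replicate 3. Trp63, the master regulator of stratified epithelium, was at 47.8, 55.9 and 117 CPM against 63.9, 57.4 and 61.7 CPM (−0.27 and 0.23). The downregulated genes were Krt18, a keratin of simple epithelium at 70.3, 82.8 and 127 CPM against 39.7, 49.4 and 48.3 CPM (−1.03, and −0.74 without replicate 3), and the polarity gene Llgl2 (−1.17 and −0.99). Neither was called without replicate 3, nor when E11.5 replicate 1 or 3 was left out, and Krt18 was also not called without E11.5 replicate 2. Without E10.5 replicate 1, by contrast, 3 of the list were downregulated and 1 was upregulated. Krt19, another simple epithelium keratin, was at 11.8, 14.1 and 22.2 CPM against 6.05, 6.68 and 5.93 CPM and was called with and without it (−1.36 and −1.06), but not without E11.5 replicate 1 or 3.

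Of 29 listed genes of periderm and stratified epithelium 17 were tested, 7 were upregulated and none was downregulated (median log2 fold change 0.97). Without E10.5 replicate 3 the same 7 and 2 others were upregulated and 1 was downregulated (median 1.24), and 5–9 were upregulated with each library left out in turn. Of the 12 that could not be tested, 11 had 3 counts or fewer in every library. The basal keratin gene Krt15 was at 2.22, 2.17 and 1.84 CPM at E10.5 and at 10.8, 6.35 and 9.47 CPM at E11.5 (2.09 ± 0.25 SE, adjusted p = 0.00282 by edgeR's quasi-likelihood test, and 2.01 without replicate 3). The gap junction gene Gjb2 was at 1.46, 0.684 and 0.428 CPM against 9.82, 9.14 and 10.7 CPM (3.51 and 3.20), and its neighbour on chromosome 14, Gjb6, at 0.117, 0.342 and 0.306 CPM against 4.72, 2.70 and 3.85 CPM (3.84 and 3.98). Tgm1, encoding the transglutaminase that crosslinks the cornified envelope, was at 0.992, 0.627 and 0.857 CPM against 3.34, 2.98 and 3.69 CPM (2.01 and 2.04). The desmosomal plaque gene Pkp1 rose from 0.350, 0.228 and 0.551 CPM to 4.24, 2.70 and 5.78 CPM (3.48 and 3.84). In each of these genes, as in every upregulated DEG, all E11.5 libraries lay above all E10.5 libraries, replicate 3 included. Krt14, a basal keratin at a higher level, was at 13.2, 12.8 and 21.4 CPM against 30.5, 25.9 and 36.2 CPM, with a log2 fold change of 0.97 that missed the threshold and of 1.24 that passed it without replicate 3. The summed level of the list was 96.3, 82.3 and 146.5 CPM at E10.5 and 185, 171 and 200 CPM at E11.5. Of 14 genes of epidermal anchorage, 2 were upregulated: Col17a1, at 2.63, 1.77 and 1.71 CPM against 23.6, 19.6 and 23.7 CPM (3.45 and 3.34), and Col7a1, at 5.43, 4.45 and 1.22 CPM against 15.8, 12.2 and 14.8 CPM (1.94 and 1.53). Col7a1 was not called without E10.5 replicate 2 or any 1 of the E11.5 libraries, and 3 of these genes were upregulated without E10.5 replicate 3.

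**Figure D5:**
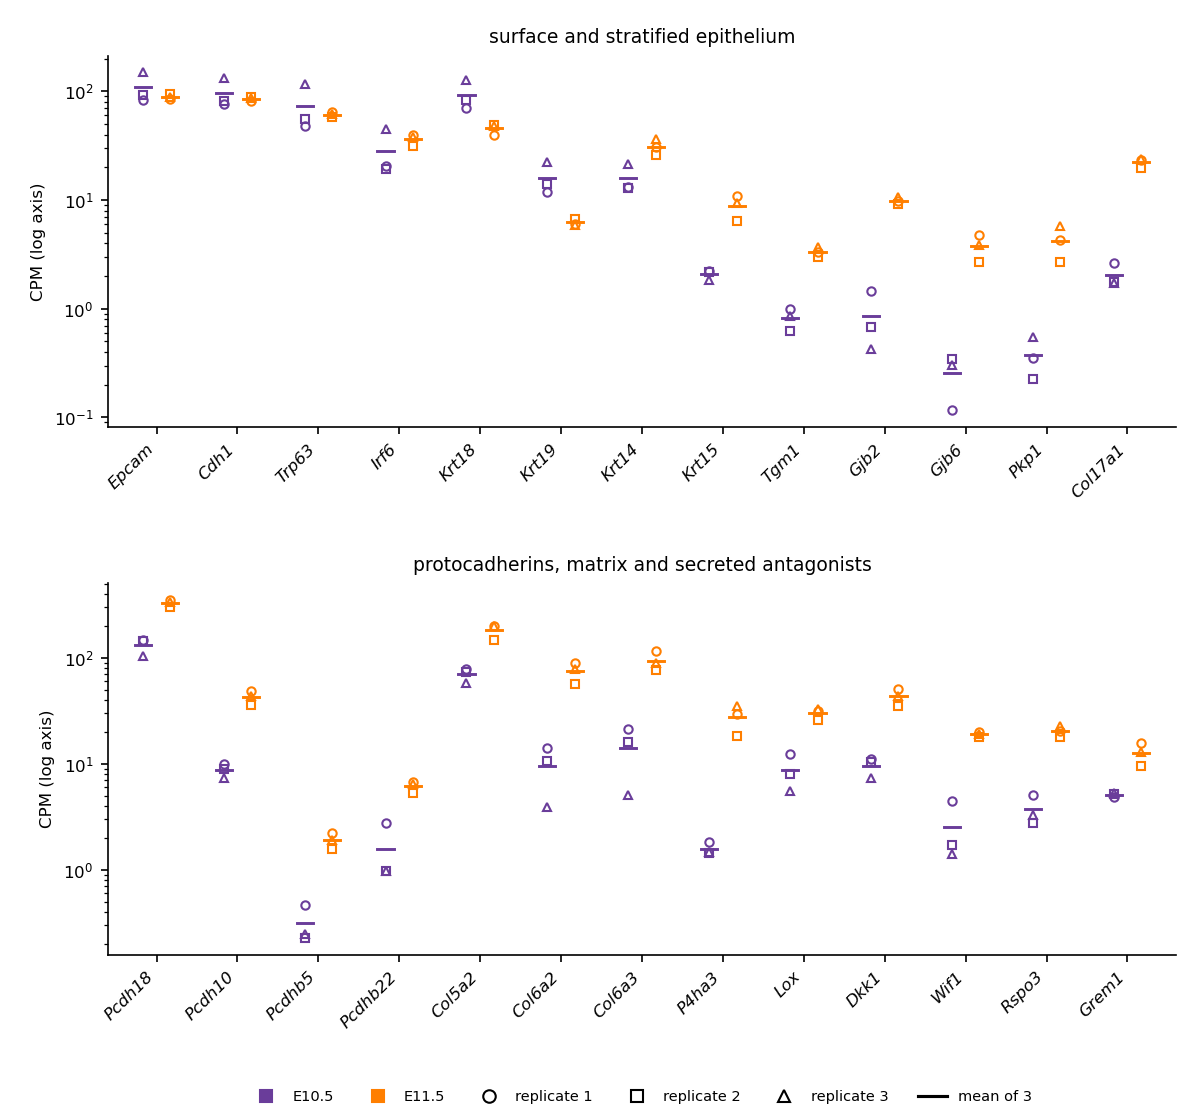
CPM on a log axis of 13 genes of surface and stratified epithelium (upper panel) and 13 protocadherin, matrix, secreted antagonist and R-spondin genes (lower panel) in each E10.5 (purple) and E11.5 (orange) library, with a symbol for each replicate and a bar at the mean of 3. Epcam, Cdh1 and Trp63 overlap between stages with E10.5 replicate 3 highest, and Gjb2, Gjb6, Pkp1 and Col17a1 are separated.

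Many genes of the extracellular matrix rose. Of 44 collagen genes 39 were tested, 19 were upregulated and none was downregulated (median log2 fold change 0.95), 8 of the 19 being genes that the study does not name. Without E10.5 replicate 3, in which collagens were low, 14 of the 19 were upregulated and the median was 0.63. The number was 10 without E10.5 replicate 2, 6 without E11.5 replicate 1, and 11 and 7 when replicate 2 or 3 of E11.5 was left out, and 20 with the GC trend removed. Col6a2, a chain of the beaded type VI collagen around mesenchymal cells, was at 14.2, 10.6 and 3.92 CPM at E10.5 and at 89.2, 56.2 and 78.6 CPM at E11.5 (2.96 ± 0.40 SE, adjusted p = 0.00438 by edgeR, and 2.59 without replicate 3). Its partner Col6a3 was at 21.2, 16.1 and 5.08 CPM against 115, 77.1 and 88.7 CPM (2.73 and 2.33). Col5a2, a regulator of fibril diameter, rose from 78.1, 73.8 and 58.1 CPM to 201, 147 and 200 CPM (1.38 and 1.26), and Col25a1 from 14.7, 12.6 and 9.18 CPM to 40.9, 33.5 and 38.1 CPM (1.62 and 1.45). Col6a3 was not called without E11.5 replicate 1. For all 4, replicate 3 was the lowest E10.5 library. Replicates 1 and 2 lay below the E11.5 libraries as well, as in every upregulated DEG. The cartilage collagen gene Col2a1 was at 730, 843 and 458 CPM against 334, 437 and 418 CPM, with log2 fold changes of −0.77 and −0.99 that were not called.

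Of 33 tested genes of elastic fibres and collagen crosslinking 7 were upregulated and none was downregulated (median log2 fold change 0.57), and 6 were without E10.5 replicate 3, of which 5 were the same. Leaving out E11.5 replicates 1, 2 and 3 in turn gave 2, 4 and 2. P4ha3, a collagen prolyl hydroxylase gene, was at 1.81, 1.43 and 1.47 CPM at E10.5 and at 29.7, 18.2 and 35.1 CPM at E11.5 (4.13 ± 0.29 SE, adjusted p = 0.001 by edgeR, and 4.09 without replicate 3). The replicates of E10.5 differed little, replicate 3 included. Lox, encoding lysyl oxidase, rose from 12.4, 8.04 and 5.51 CPM to 31.3, 26.1 and 32.8 CPM (1.79 and 1.55), and Fbln5, needed for elastic fibre assembly, had log2 fold changes of 1.34 and 1.11 and was not called without E11.5 replicate 1 or 3. The proteoglycan genes Bgn (24.2, 25.8 and 13.7 CPM against 72.7, 52.3 and 70.9 CPM, 1.62 and 1.38) and Ogn (0.525, 0.228 and 0.367 CPM against 8.12, 4.12 and 8.90 CPM, 4.21 and 4.20) were upregulated, and both were called with any library left out. Among MMP, ADAMTS and TIMP genes 4 of 31 were upregulated, including Adamts5 (3.50, 3.59 and 4.96 CPM against 13.1, 8.91 and 12.3 CPM, 1.51 and 1.68), and 1, Adamts8 (−1.98 and −1.90), was downregulated, and the same 5 genes were called without E10.5 replicate 3. Adamts8 was called in no other fit that leaves out a library, and it shares 10.6% of its exon sequence with another gene. The number of these genes upregulated was 2 without E10.5 replicate 2 and 1 when E11.5 replicate 1 or 3 was left out.

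Protocadherins, cadherin-like proteins of cell recognition, included many upregulated genes. Of 69 listed genes 48 were tested, 19 were upregulated and none was downregulated (median log2 fold change 0.72), and without E10.5 replicate 3 the number was 21, with 18 of the 19 among them (median 0.65). Among 225 groups of genes whose symbols share a stem and of which at least 8 were tested, the clustered beta protocadherins (stem Pcdhb) had the highest share upregulated, 12 of 15 (80%), and 14 of 15 without replicate 3. Nearly all of these are low, Pcdhb5 for example being at 0.467, 0.228 and 0.245 CPM at E10.5 and at 2.23, 1.56 and 1.93 CPM at E11.5 (2.58 and 2.43). Leaving out E10.5 replicates 1 and 2 gave 12 and 6 upregulated protocadherins, and leaving out E11.5 replicates 1, 2 and 3 gave 3, 9 and 6. Clustered protocadherins have similar sequences, and how reads with several positions were counted is not given in the sources used here, so the split of reads among them is uncertain. The nonclustered genes at higher level were Pcdh18 (147, 143 and 105 CPM against 351, 303 and 336 CPM, 1.33 and 1.19) and Pcdh10 (9.92, 8.90 and 7.34 CPM against 48.9, 36.1 and 43.8 CPM, 2.30 ± 0.17 SE, adjusted p = 0.001 by edgeR, and 2.19 without replicate 3). These were called with any library left out.

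Guidance receptors and ion channels changed in both directions. Among Slit, Robo, netrin and Unc5 genes 4 of 16 were upregulated and 3 were downregulated, and the same genes were called without E10.5 replicate 3. The numbers were 2 and 2 when E10.5 replicate 2 or E11.5 replicate 3 was left out, and 1 and 1 without E11.5 replicate 1. Robo2 rose from 19.6, 21.1 and 25.1 CPM to 70.3, 42.2 and 62.3 CPM (1.41 and 1.51 without E10.5 replicate 3), while Robo3, of commissural neurons, fell from 1.75, 1.88 and 1.71 CPM to 0.212, 0.426 and 0.468 CPM (−2.24 and −2.27). The semaphorin gene Sema5b fell from 18, 17 and 16.2 CPM to 3.61, 2.32 and 1.46 CPM (−2.79 and −2.83), and the ephrin receptor gene Epha8 rose from 3.44, 2.34 and 0.734 CPM to 20.5, 14.5 and 16.0 CPM (2.96 and 2.55). Of 118 potassium and calcium channel genes 70 were tested, 11 were upregulated and 4 were downregulated, or 16 and 7 without E10.5 replicate 3. The number upregulated was 7 without E10.5 replicate 2 and 5, 6 and 4 when E11.5 replicates 1, 2 and 3 were left out, and the number downregulated was 2 without E10.5 replicate 2 or any 1 of the E11.5 libraries. Kcnj2, an inward rectifier gene that is mutated in Andersen-Tawil syndrome with its facial features, was at 9.69, 8.67 and 13 CPM at E10.5 and at 49.5, 41.3 and 55.0 CPM at E11.5 (2.22 ± 0.19 SE, adjusted p = 0.00117 by edgeR, and 2.40 without replicate 3). Kcna6 (4.22–8.38 CPM against 19.5–22.5 CPM, 1.58 and 1.32), which shares 39.6% of its exon sequence with another gene, rose as well, and Kcnh2 fell from 17.9, 16.9 and 14.9 CPM to 4.40, 6.30 and 5.93 CPM (−1.58 and −1.65).

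Among signaling molecules, genes of both secreted Wnt antagonists and Wnt agonists were upregulated. Of 15 tested Wnt antagonists and R-spondins, which tune the pathway outside the cell, 7 were upregulated and none was downregulated (median log2 fold change 1.06). Without E10.5 replicate 3 the number was also 7, with 6 of them the same, and it was 4 when any 1 of the E11.5 libraries was left out. The antagonist genes Wif1 (4.44, 1.71 and 1.41 CPM against 19.9, 17.9 and 19.2 CPM, 2.91 and 2.63 without replicate 3) and Dkk1 (11, 10.5 and 7.4 CPM against 50.8, 35.2 and 43.4 CPM, 2.16 ± 0.20 SE, adjusted p = 0.0013 by edgeR, and 2.0) were upregulated. So were the agonist genes Rspo2 (33.3, 30.5 and 16.5 CPM against 97, 72.3 and 78.6 CPM, 1.62 and 1.37) and Rspo3 (2.45 and 2.38), which shares 13.1% of its exon sequence with another gene. In all 4, as in every upregulated DEG, the E11.5 libraries lay above the E10.5 libraries. Of 15 Wnt ligands 4 were upregulated and 1, Wnt7a, was downregulated (−1.61 and −1.35). The number of ligands upregulated was 3 without E10.5 replicate 3 and 2 without E11.5 replicate 1 or 3, and Wnt7a was not called without E10.5 replicate 2 or any 1 of the E11.5 libraries.

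Of 27 tested BMP and TGF-beta antagonists and targets 9 were upregulated and 2 were downregulated, or 8 and 2 without E10.5 replicate 3. The number upregulated was 3 and 5 when E11.5 replicate 1 or 3 was left out, and none was downregulated when any 1 of the E11.5 libraries was left out. The BMP antagonist gene Grem1 was upregulated (4.84, 5.13 and 5.32 CPM against 15.5, 9.48 and 12.8 CPM, 1.30 and 1.33), and Chrdl1 was downregulated (−1.89 and −1.32). Gdf10, a ligand of the same superfamily, rose from 1.11, 0.342 and 0.306 CPM to 15.4, 5.92 and 12.5 CPM (4.25 and 3.95), and Mstn fell from 1.52, 2.05 and 2.88 CPM to 0, 0.142 and 0.156 CPM (−4.32 and −4.06). Among FGF ligands 3 of 13 were downregulated and 1 was upregulated, or 3 and 3 without E10.5 replicate 3. The upregulated gene was Fgf2 (1.86 and 1.72), which shares 13.2% of its exon sequence with another gene, and Fgf16 (0.90 and 1.47) and Fgf11 (0.90 and 1.06) were called only without that library. The downregulated genes included Fgf8 from 33, 36 and 44.2 CPM to 12.9, 17.8 and 15.8 CPM (−1.28 and −1.15) and Fgf15 from 6.89, 7.47 and 22.6 CPM to 1.64, 1.71 and 1.14 CPM (−3.03 and −2.25), which shares 25.7% of its exon sequence with another gene. The third was Fgf18 (−1.88 and −2.08). The number of FGF ligands downregulated was 1 when E11.5 replicate 1 or 3 was left out, and Fgf15 was among those not called then.

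Enzymes of retinoic acid metabolism changed in opposite directions within their families. Of 24 tested genes of the retinoid list 2 were upregulated and 3 were downregulated, or 3 and 3 without E10.5 replicate 3 and 1 and 2 without E11.5 replicate 1. The synthesis gene Aldh1a1, of eye and neural tissue, fell from 16.5, 4.73 and 19.9 CPM to 0.478, 0.190 and 0.208 CPM (−5.54 ± 0.66 SE, adjusted p = 0.0027 by edgeR, and −5.17 without replicate 3). Aldh1a2, the main synthesis gene of embryonic mesenchyme, rose from 3.74, 2.45 and 1.10 CPM to 27.0, 22.1 and 27.6 CPM (3.39 ± 0.35 SE, adjusted p = 0.00168, and 3.04). Among the degrading enzymes, Cyp26c1 fell from 17.6, 19.3 and 21.1 CPM to 3.13, 4.26 and 3.90 CPM (−2.35 and −2.29) and Cyp26a1 from 8.35, 8.10 and 8.08 CPM to 3.61, 5.45 and 3.12 CPM (−1.01 and −1.01), while Cyp26b1 rose from 21.9, 20.6 and 7.04 CPM to 119, 62.3 and 113 CPM (2.57 and 2.20). In none of these 5 genes did the stages overlap, which held for every DEG. All but 2 were called with any library left out. Cyp26b1 was lost without E11.5 replicate 1, and Cyp26a1 without E10.5 replicate 1 or 2 or E11.5 replicate 1 or 3.

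Markers of mesenchymal lineages moved in both directions. Of 13 osteoblast lineage genes 4 were upregulated and 2 were downregulated, with and without E10.5 replicate 3. Runx2, the earliest osteoblast regulator, was at 6.95, 4.85 and 1.29 CPM against 75.7, 40.7 and 60.5 CPM (3.75 and 3.32), and Sp7, which acts after it, at 2.39, 1.43 and 1.10 CPM against 8.33, 5.31 and 7.75 CPM (2.11 and 1.89). Alpl, the alkaline phosphatase gene of matrix-forming cells, was at 17.1, 17.4 and 22.0 CPM against 14.9, 15.2 and 13.3 CPM (−0.38, not called), and Ibsp, of mineralizing matrix, fell from 1.4, 1.94 and 0.857 CPM to 0.106, 0.332 and 0.052 CPM (−3.01 and −3.26). The number of the osteoblast list upregulated was 2 when any 1 of the E11.5 libraries was left out, and the number downregulated was 1 without E10.5 replicate 2, E11.5 replicate 1 or E11.5 replicate 2 and none without E11.5 replicate 3. Of 15 genes of dense connective tissue 5 were upregulated and none was downregulated, and the same 5 were called without E10.5 replicate 3. They included Postn, encoding a matricellular protein, at 21.1, 15.5 and 20.3 CPM against 80.9, 51.6 and 73.3 CPM (1.86 and 1.91), and Ptn at 178, 129 and 192 CPM against 482, 339 and 442 CPM (1.34 and 1.46). The connective tissue count was 3 when E11.5 replicate 1 or 3 was left out. Of 17 tested chondrocyte lineage genes 2 were upregulated and 2 were downregulated, or 3 and 0 without E10.5 replicate 3, and none was called without E11.5 replicate 1 or 3. The regulator gene Sox9 was at 103, 129 and 105 CPM against 94.8, 100 and 112 CPM (−0.13 and −0.18), the stages overlapping. The aggrecan gene Acan, of cartilage matrix, was at 0.233, 0.114 and 0.184 CPM against 0.584, 0.663 and 0.937 CPM (2.0 and 2.03), and Col9a2, a cartilage collagen gene, at 10.8, 7.47 and 5.57 CPM against 15.3, 14.2 and 20.3 CPM (1.06, and 0.86 and not called without replicate 3). Each was called in 1 of the 6 fits that leave out a library. Hapln1 (−1.27) and Matn3 (−1.14), cartilage matrix genes that were highest in E10.5 replicate 3, were downregulated with all 6 libraries and not called without it (−0.91 and −0.93), nor without E11.5 replicate 1 or 3.

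Regional factors of the facial mesenchyme also split. Pax9, of maxillary and nasal mesenchyme and pharyngeal endoderm, rose from 31.6, 34.2 and 11.3 CPM to 119, 96.4 and 113 CPM (2.09 and 1.73), and Osr1 from 3.91, 2.51 and 0.918 CPM to 10.4, 11 and 11.6 CPM (2.16 and 1.78). In both genes E10.5 replicate 3 was the lowest library and the change was smaller without it. Dlx2 fell from 60.8, 81.1 and 59.3 CPM to 31.6, 37.2 and 30.1 CPM (−1.02 and −1.10), and Nr2f1 from 167, 162 and 125 CPM to 63.8, 84.0 and 78.7 CPM (−1.0 and −1.12). Barx1 and Lhx8, of oral mesenchyme, had log2 fold changes of −0.04 and −0.01, and of −0.26 and −0.22 without replicate 3. Of these DEGs, Pax9 was not called without E11.5 replicate 1, Osr1 when any 1 of the E11.5 libraries was left out, Dlx2 without replicate 2 of E10.5 or E11.5 replicate 1 or 3, and Nr2f1 without E10.5 replicate 1 or 2 or E11.5 replicate 1. The neural crest glia factor Sox10 rose from 5.84, 7.07 and 4.47 CPM to 14.3, 14.2 and 16.0 CPM (1.35 and 1.20), and Gfra3 from 0.525, 0.285 and 0.428 CPM to 2.33, 1.56 and 1.93 CPM (2.21 and 2.24), among 4 upregulated and 2 downregulated of 13 genes, which were the same without E10.5 replicate 3. The numbers of the glia list were 2 and 2 when E10.5 replicate 2 or E11.5 replicate 2 was left out, 1 and 0 without E11.5 replicate 1, and 2 and 0 when E11.5 replicate 3 was left out. The myogenic genes Myod1 and Myog could not be tested, and 16 of the 23 genes of muscle were in the same position. Des, which muscle and pericytes share, fell from 19.2, 18.1 and 7.77 CPM to 2.44, 4.17 and 3.12 CPM (−2.21 and −2.51), and was not called without E11.5 replicate 1 or 3.

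In the blood, adult beta-globin messages rose, and none of the 3 embryonic globin messages tested was a DEG by edgeR or DESeq2. Of the 4 adult globin genes tested, 2 were upregulated and 2 were not DEGs. The summed level of these 4 was 512, 378 and 198 CPM at E10.5 and 570, 588 and 631 CPM at E11.5. Hbb-bt was at 5.95, 2.51 and 9.67 CPM at E10.5 and at 49.4, 39.9 and 55.3 CPM at E11.5 (log2 fold change 3.0 ± 0.40 SE, adjusted p = 0.00394 by edgeR's quasi-likelihood test, and 3.51 without E10.5 replicate 3). Hbb-bs was at 4.26, 2.22 and 2.75 CPM against 16.1, 16.9 and 23.4 CPM (2.61 and 2.54). The embryonic beta-globin genes were at far higher levels, Hbb-y at 1982, 1394 and 2490 CPM against 2803, 2505 and 2822 CPM (0.47, adjusted p = 0.166, and 0.68 without replicate 3) and Hbb-bh1 at 803, 611 and 1119 CPM against 564, 675 and 597 CPM (−0.46, adjusted p = 0.19, and −0.21). The embryonic alpha-globin gene Hba-x had log2 fold changes of 0.53 and 0.35. Hbb-bt and Hbb-bs are near-identical copies, so the split between them is uncertain. Of 27 other red cell genes, the water channel gene Aqp1 was upregulated (0.759, 0.912 and 0.551 CPM against 5.52, 3.36 and 4.22 CPM, 2.54 and 2.37). The transferrin receptor gene Tfrc, at 151, 164 and 335 CPM against 94.3, 107 and 96.1 CPM, was downregulated (−1.13), and it was not called without replicate 3 (−0.67) or any 1 of the E11.5 libraries.

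Endothelial genes gave no DEG among 28 tested by edgeR's quasi-likelihood test, with or without E10.5 replicate 3, and none by DESeq2, with 2 genes at an unadjusted p under 0.05. Their median log2 fold change was 0.36 with all libraries and −0.02 without replicate 3. The vascular cadherin gene Cdh5 was at 82.6, 91.6 and 20.7 CPM at E10.5 and at 99.0, 89.9 and 92.6 CPM at E11.5 (0.53, and 0.11 without replicate 3), and Kdr had 0.35 and −0.02. For both, E10.5 replicates 1 and 2 lay among or next to the E11.5 libraries. Of 23 macrophage genes, the chemokine gene Pf4 was upregulated (9.05, 6.22 and 6.36 CPM against 15.1, 13 and 16.1 CPM, 1.03) and was not called without replicate 3 (0.95), nor without replicate 2 of E10.5 or E11.5 replicate 1 or 3. The macrophage receptor gene Csf1r, which shares 15.1% of its exon sequence with another gene, was at 11.4, 7.98 and 7.59 CPM against 8.49, 10.1 and 10.6 CPM (0.11 and 0.0043).

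Genes of growth and basic metabolism gave few DEGs, and some of these lists were lower at E11.5 by less than the fold-change threshold. Over all genes tested, 27.9% had an unadjusted p under 0.05, 14.2% lower and 13.7% higher at E11.5. Of 23 glycolysis genes 16 had an unadjusted p under 0.05 and were lower at E11.5 and 1 was higher, with a median log2 fold change of −0.57 (−0.46 without E10.5 replicate 3). Of these genes 13 passed 0.05 for the adjusted p-value (edgeR's quasi-likelihood test), as did 11.8% of all genes. The summed level of the list was 10182, 11219 and 12440 CPM at E10.5 and 6320, 7992 and 6858 CPM at E11.5, and the stages did not overlap. The enolase gene Eno1 was at 2293, 2535 and 2845 CPM against 1218, 1562 and 1313 CPM (−0.91 and −0.82) and the lactate dehydrogenase gene Ldha at 1232, 1439 and 1732 CPM against 725, 940 and 785 CPM (−0.85 and −0.71), neither of them a DEG, and both were singled out after their values were seen. The 1 DEG was Gapdh (24.3, 31.9 and 11.6 CPM against 7.06, 8.05 and 6.77 CPM, −1.63 and −1.95), a gene with many processed copies whose count is uncertain, and it was called in 2 of the 6 fits that leave out a library. None of 40 DNA replication genes was a DEG by edgeR or DESeq2, and 14 had an unadjusted p under 0.05, all lower at E11.5, with a median log2 fold change of −0.25. None of 36 mitosis genes was a DEG by either tool (2 at an unadjusted p under 0.05, median −0.13). The same held for 25 cholesterol synthesis genes (3 at an unadjusted p under 0.05) and 78 nuclear-encoded respiratory chain genes (17), whereas of 25 heat shock and chaperone genes (7) none was called by edgeR and 1 by DESeq2. These 5 lists also held no DEG by edgeR without E10.5 replicate 3. Of 78 cytosolic ribosomal protein genes 43 had an unadjusted p under 0.05, all lower at E11.5 (median −0.39), and 3 were downregulated DEGs. Rps27a was at 572, 689 and 849 CPM against 213, 330 and 253 CPM (−1.41 and −1.25 without E10.5 replicate 3) and Rpl30 at 328, 314 and 446 CPM against 131, 188 and 188 CPM (−1.10 and −0.93). Ribosomal protein genes have many processed copies, and the third, Rpl24 (−1.84 and −2.13), shares 47.0% of its exon sequence with another gene, so these calls are uncertain. Without E11.5 replicate 1, 1 ribosomal protein gene was called. In E10.5 replicate 3 the ribosomal protein genes were higher than in replicates 1 and 2 by a median of 0.36.

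Beside the lists, the genes with the largest changes that were called with every library left out in turn included several known for mesenchyme and peptides. Cpxm2, a secreted carboxypeptidase-like gene (chr7:132032687-132154739, minus strand, GRCm38), rose from 0.350, 0.228 and 0.367 CPM to 22.9, 13.7 and 19.9 CPM (5.88 ± 0.32 SE, adjusted p = 0.000576 by edgeR, and 5.99 without E10.5 replicate 3), which was the largest rise among the 119 genes eligible. Next among the genes not described above were Nfix, a nuclear factor I gene (4.68 and 4.32), and Lrrc17, encoding a secreted leucine-rich repeat protein (4.04 and 3.73). Penk, the enkephalin precursor gene, had 3.94 and 3.57 and shares 14.3% of its exon sequence with another gene. Gm14226 (3.55 and 3.44) and Tmem26 (3.27 and 3.05) followed. The chemokine gene Cxcl14 rose from 18.2, 8.04 and 11 CPM to 132, 76.5 and 124 CPM (3.16 and 3.08), and Pgm5 had 3.03 and 2.85. Among the 68 eligible downregulated genes outside the lists above were the ceruloplasmin gene Cp, with the log2 fold changes −5.27 and −4.73, the insulin receptor substrate gene Irs4 (−3.69 and −3.51) and Ildr2 (−2.92 and −2.62), which shares 11.04% of its exon sequence with another gene. In all of these the stages did not overlap, which the rule for naming them required. Among the 225 symbol stems, Pou genes, homeobox regulators of neural tissue among them, had the highest share downregulated among these groups, 4 of 8 (50%), and 5 of 8 were downregulated without E10.5 replicate 3.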

How the data were processed

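RNA-seq libraries of lambdoidal junction tissue were made by the authors from pools of 17–18 embryos, 3 pools per stage, and the 3 E10.5 and 3 E11.5 libraries were used here. The authors mapped the reads with HISAT2 2.0.5 to GRCm38/mm10 and deposited raw read counts per gene from featureCounts, without normalization. The FPKM columns and the columns of the authors' own comparisons (fold changes and p-values) were not used. Strand setting and treatment of reads with several positions are not given in the sources used here, so overlapping and antisense genes, and near-identical copies, cannot be told apart with certainty. Nothing says that the pools came from separate collections, so p-values measure the spread between these pools.

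Low counts were removed with filterByExpr, and libraries were scaled by TMM. E11.5 vs. E10.5 was tested with edgeR's quasi-likelihood test (edgeR 4.0.16, limma 3.58.1, R 4.3.3) and Benjamini-Hochberg adjustment over all genes tested. The fit was first tested on simulated data, whose biological coefficient of variation was set below the 0.177 of the fit with all 6 libraries. The condition to be passed covered only simulated libraries without a GC-linked deviation, so it does not bear on that of E10.5 replicate 3. The thresholds for a DEG were 0.05 for the adjusted p-value and 1 for the absolute log2 fold change. The exact permutation test of 3 against 3 libraries cannot give a p below 0.1. Each standard error was obtained from the log2 fold change and its F statistic. The alternatives were other scalings, DESeq2 1.42.0, other filters, the replicate number as a block, a joint fit of all 9 libraries, removal of each library's trend with GC content (lowess, span 0.3), other thresholds and each library left out in turn. A stage with no count was set to 3 counts per library (0.142–0.184 CPM) for lower bounds, which cover counting error only, since the reads carry no molecular identifiers.

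The comparison and the gene lists were chosen with earlier results of these data known, so no list is independent evidence. The genes named are the 15 upregulated and 15 downregulated protein-coding DEGs with the largest fold change that the study's text does not name, that reach 10 CPM on average at the higher stage, do not overlap between stages and are called with each library left out, then up to 4 DEGs per direction and list and the defining members of a list, and the 4 per direction with the smallest p-values that were lost or gained without E10.5 replicate 3. Members named beyond this to complete a count were chosen after their values were seen. Some genes that this rule names are not reported here. Gene coordinates, exon overlaps and 3′ UTRs are from GENCODE vM21 (GRCm38). The sequence searched for was CTACCTCA. Its first 7 bases, CTACCTC, were also counted and lie within it, and the longer sequence is reported. Replicate numbers did not pair the libraries, since the correlations of the deviations of same-numbered libraries from their stage means were −0.0094, 0.0153 and −0.0031. Python 3.11.15 (numpy 2.4.6, pandas 2.3.3, matplotlib 3.10.9) made the tables and plots.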

Additional observations from a re-analysis of the deposited data

How the results depend on the processing

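Compared with 954 DEGs (544 upregulated and 410 downregulated), the number was within 1.5 times under another scaling (955 with DESeq2's size factors and 945 with upper quartile scaling), DESeq2 itself (1139), the filters of at least 1 count (1208) and of at least 10 counts in each library (677), the fit on all 9 libraries (1123) and GC trend removal (1110). It was 462 (268 and 194) at the stricter adjusted p-value threshold of 0.01, 1849 (972 and 877) with no fold-change threshold and 213 (112 and 101) when tested against an absolute log2 fold change of 1 with glmTreat, as these thresholds are stricter or looser by construction. Leaving out 1 library gave 395–1592 DEGs, 234–772 upregulated and 161–820 downregulated. The lowest numbers came without E11.5 replicate 1 (395) and E11.5 replicate 3 (453), and the highest without E10.5 replicate 3, the library with a GC-linked deviation. No named gene that was called changed sign under any alternative. The log2 fold changes of all genes had a median of −0.03 with all libraries, −0.01 without E10.5 replicate 3 and −0.02 with the GC trend removed. Depth limits the clustered protocadherins and the stratified epithelium genes, most of which lie at a few CPM, where 3 counts are worth 0.142–0.184 CPM.

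With the replicate number as a block there were 875 DEGs (505 and 370), and with the block and GC trend removal together 1086 (635 and 451). The libraries share only a number, since same-numbered libraries did not deviate together.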

Other observations

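Further groups held few DEGs. Among solute carriers 8 of 249 tested genes were upregulated and 7 were downregulated, shares of which neither is far from those over all genes tested. The numbers were 8 and 13 of 254 without E10.5 replicate 3, 4 and 4 without E10.5 replicate 2, and 4 and 3, 5 and 6, and 4 and 2 when E11.5 replicates 1, 2 and 3 were left out. Of 16 annexins and S100 genes 2 were upregulated, and 2–4 with each library left out in turn, Anxa2 from 47.8, 36.7 and 39.7 CPM to 151, 111 and 154 CPM (log2 fold change 1.74, and 1.71 without E10.5 replicate 3) and Anxa1 (2.15 and 2.24). By edgeR's quasi-likelihood test 10 of the 16 had an unadjusted p under 0.05, all higher at E11.5, as had 13.7% of all genes tested. Klf4, an epithelial differentiation factor and the 1 upregulated gene of 20 immediate early genes, rose from 3.91, 3.19 and 3.0 CPM to 18.3, 12.1 and 19.3 CPM (2.30 and 2.22). The pigment cell gene Trpm1 fell from 28.8, 6.27 and 13.1 CPM to 0.849, 2.08 and 2.81 CPM (−3.06 and −3.18), and it was not called when any 1 of the E11.5 libraries was left out. The pigment gene Dct was at 3.39, 0.684 and 1.04 CPM against 0.106, 0.332 and 0.468 CPM (−2.46 and −2.71) and was called only without E10.5 replicate 3.

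The noncoding RNA Xist, which female cells express, was at 263, 246 and 281 CPM in the E10.5 pools and at 719, 309 and 325 CPM in the E11.5 pools (log2 fold change 0.78, adjusted p = 0.14 by edgeR's quasi-likelihood test), so E11.5 replicate 1 was the highest. Of the 5 sex-linked transcripts tested none was a DEG by edgeR or DESeq2. By edgeR, 4 of them had an unadjusted p under 0.05, 3 lower and 1 higher at E11.5. In all 5 the stages did not overlap, which held for 36.6% of all genes tested. Whether the sex makeup of the pools differed between stages was not tested.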
